A study of Caenorhabditis elegans with 6 samples.

Results

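The genes of the proteasome were taken as every gene whose symbol in the deposited table begins with pas-, pbs-, rpn- or rpt-. This rule found 32 genes among 46646 in the table, each on a row of its own and each protein-coding in the RefSeq annotation of WBcel235. Of these, 14 encode the core particle (7 pas and 7 pbs genes) and 18 encode the regulatory cap (12 rpn and 6 rpt genes). In early embryos of C. elegans, RNA was crosslinked to protein with UV light and recovered by precipitating GFP, a method known as iCLIP, in which each read is a piece of RNA that came down with the GFP. Worms had been raised at 20°C, and embryos were irradiated 3 times with 400 mJ/cm2. There were 3 groups of 2 libraries each. Worms of the first carry MEG-3::GFP and those of the second PGL-1::GFP, each tagged at its own gene (strains listed as meg-3(ax3054[meg-3::meGFP]) and pgl-1(ax3122[pgl-1::GFP])), and those of the third express GFP alone. Libraries are named below as MEG-3, PGL-1 and GFP. The GFP strain listed by the study carries a transgene under the pie-1 promoter, which is active in the germ line, in an unc-119(ed3) background. It thus differs from the tagged strains in more than the missing protein. The GFP libraries also bear library names of a series of their own, and if this marks a batch, batch and control cannot be told apart. The embryos were of mixed early stages. The study calls its MEG-3::GFP experiments independent, but separate cultures are not stated in the sources used here for every group, so any p-value measures the spread between libraries, which may be technical.

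The proteasome is the protease that destroys proteins tagged with ubiquitin. Its core is a barrel in which outer rings of alpha subunits (pas genes) close off inner rings of beta subunits (pbs genes) that carry the cutting sites. The cap sits on the end of the barrel, where its ATPases (rpt genes) unfold the substrate and its other subunits (rpn genes) bind ubiquitin, remove it and hold the complex together. In the early worm embryo the proteasome is known for clearing maternal proteins after fertilization. MEG-3 is a disordered protein that builds the gel-like part of P granules, the RNA-protein condensates of the germ lineage, and PGL-1 builds their liquid part. The comparisons below ask how far the mRNAs of this housekeeping complex were recovered with each protein and with GFP alone.

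Library totals ran from 14040 to 280007 reads on genes, and 9268 genes had a read in any library. GFP replicate 2 was the smallest library. PGL-1 replicate 1, at 21180 reads, held a read for only 1025 genes, against 4170 genes in GFP replicate 1 at 26531 reads. The limit set by 3 reads, up to which a gene may go unseen, was 10.7 to 13.3 reads per 1000000 (CPM) with MEG-3 but 113 and 214 CPM with GFP and 141.6 CPM in PGL-1 replicate 1. Reads of libraries so unlike in size can be set against each other only as CPM. All such limits and all intervals below cover counting error only. Of 10 maternal mRNAs that mark early embryos, 9 were at 60 reads or more in both MEG-3 libraries. Among these 10 are pos-1 and nos-2, which the study counts as bound by MEG-3. The 10 genes held 1.21% and 1.65% of reads with MEG-3, 1.98% and 0.489% with PGL-1, and 1.79% and 0.278% with GFP. The yolk genes of the adult intestine had 1 read in all libraries together, and the 3 sperm genes had none. Among 4 adult muscle genes the highest count was 27 reads, for unc-54 in GFP replicate 2, where the 4 genes held 0.199% of reads against at most 0.0339% in any other library. Their part in the results was not tested.

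Proteasome mRNAs were read more often than protein-coding genes at large in 5 of the 6 libraries, with GFP replicate 2 as the exception, and this was so with GFP alone as well as with the tagged proteins. In MEG-3 replicate 1, 19 of the 32 genes had a read (59.4%), beside 33.8% of all genes with a read somewhere and 36.2% of the protein-coding ones. In MEG-3 replicate 2 the number was 31 (background 69.7%), and only rpn-6.2 had none. PGL-1 replicate 1 held a read for 6 genes (background 11.1%) and PGL-1 replicate 2 for all 32 (85.9%). GFP replicate 1 held a read for 27 (45%, and 48.5% of protein-coding genes) and GFP replicate 2 for 7, a share of 21.9% that lay at the background of 21.7%. No library of input RNA was analysed here, so a higher mRNA level, more binding and more cells holding the mRNA cannot be told apart in these bulk embryos. The number of genes read differed as much between libraries of a group as between groups.

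**Figure D1:**
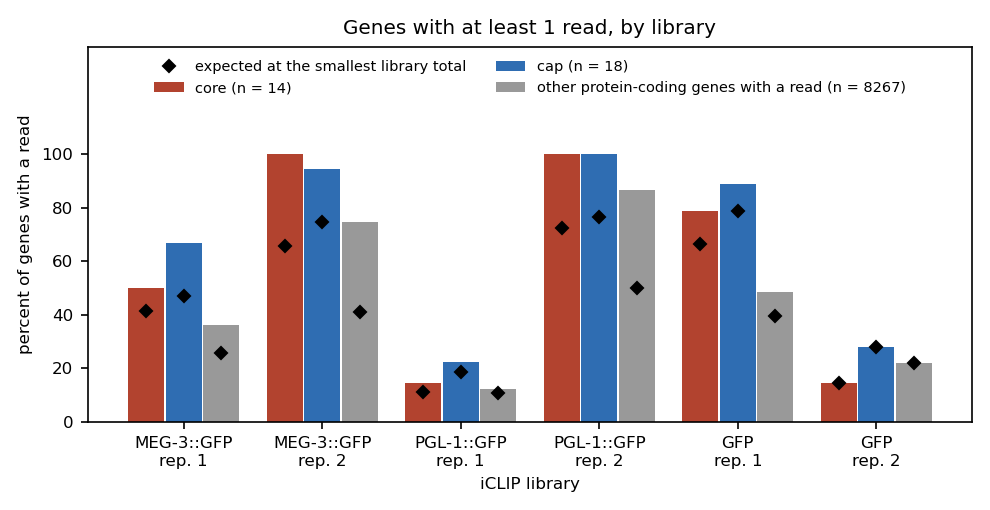
Percent of core genes, cap genes and other protein-coding genes (y axis) with at least 1 read in each of the 6 libraries (x axis), with diamonds for the percent expected if each library were reduced to the smallest total. In MEG-3 replicate 2 all 14 core genes and 17 of 18 cap genes had a read, and in PGL-1 replicate 1 only 2 core genes and 4 cap genes did.

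Split by particle, 7 of 14 core genes and 12 of 18 cap genes had a read in MEG-3 replicate 1. All 14 core genes and 17 cap genes were read in MEG-3 replicate 2. The counts with PGL-1 were 2 core and 4 cap genes in replicate 1, and 14 and 18 in replicate 2. With GFP they were 11 and 16 in replicate 1, and 2 and 5 in replicate 2. The cap had the higher share of genes read in 4 libraries, the core in MEG-3 replicate 2 alone, and both were complete in PGL-1 replicate 2. Reduced to the smallest total of 14040 reads, MEG-3 replicate 2 would be expected to hold 65.5% of core and 74.6% of cap genes, beside 40.9% of other protein-coding genes. Cap genes are longer, with a median span from start to end of 1913.5 bases (1069 to 4010) against 1018.5 bases (939 to 1311) for core genes. The span of other protein-coding genes with a read had a median of 2797 bases.

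As a share of all reads, the 32 genes took between 0.335% (GFP replicate 2) and 0.543% (MEG-3 replicate 1). The shares were 0.543% and 0.507% with MEG-3, 0.500% and 0.410% with PGL-1, and 0.467% and 0.335% with GFP. The 95% Wilson intervals of MEG-3, 0.514 to 0.575% and 0.482 to 0.534%, overlapped with that of GFP replicate 1 (0.392 to 0.557%) but not with that of GFP replicate 2 (0.252 to 0.445%). Both MEG-3 shares lay above both GFP shares, while PGL-1 lay above in replicate 1 and between the GFP libraries in replicate 2. In PGL-1 replicate 1, however, rpt-1 held 71.7% of these reads. Without the top gene of each library the shares were 0.438% and 0.414% with MEG-3, 0.142% and 0.352% with PGL-1, and 0.411% and 0.207% with GFP.

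The division of these reads between core and cap did not separate the groups. The core held 47.6% of proteasome reads in MEG-3 replicate 1 (95% Wilson interval 44.9 to 50.4%, 584 core and 642 cap reads). In MEG-3 replicate 2 it held 35.0% (32.5 to 37.5%, 497 and 924 reads). With PGL-1 the core held 2.83% in replicate 1 (0.967 to 7.99%, 3 and 103 reads) and 36.3% in replicate 2 (31.6 to 41.3%, 138 and 242 reads). With GFP it held 37.9% in replicate 1 (29.8 to 46.7%, 47 and 77 reads) and 23.4% in replicate 2 (13.6 to 37.2%, 11 and 36 reads). The values of the 3 groups overlapped, and MEG-3 replicate 2, PGL-1 replicate 2 and GFP replicate 1 lay within 3 points of each other. Core genes make up 43.8% of the members and 27.9% of their summed span. When reads were divided by the span of each gene, the core share was higher in every library, at 61.4% and 52.0% with MEG-3, 5.02% and 53.7% with PGL-1, and 52.9% and 33.2% with GFP. In PGL-1 replicate 1, rpt-1 alone had 76 of the 103 cap reads (73.8%), and rpn-1 had 25. Without the top gene of each particle the core share there was 3.57%. That value came from 1 core read, of pas-3, and from cap reads that were nearly all of rpn-1. The low core share of this library thus rested on rpt-1 and rpn-1.

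**Figure D2:**
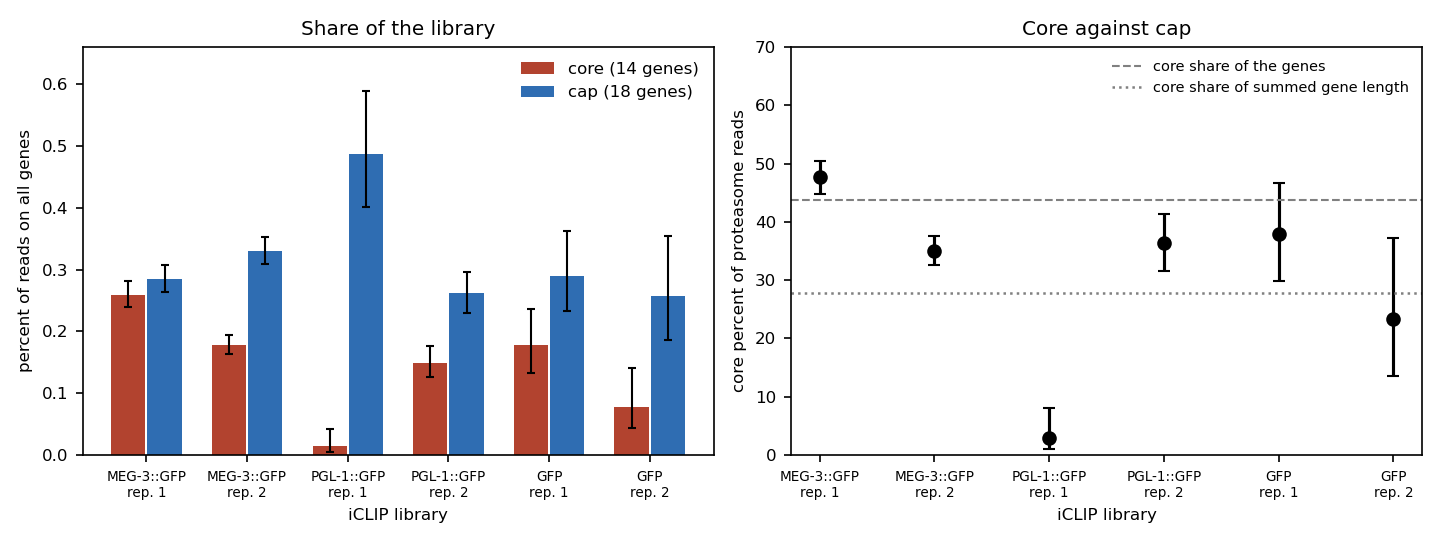
Left, percent of all reads (y axis) on the 14 core and 18 cap genes in each library (x axis), with 95% Wilson intervals. Right, the core as a percent of proteasome reads with the same intervals, where dashed and dotted lines give the core share of the genes (43.8%) and of their summed span (27.9%). PGL-1 replicate 1, at 2.83%, sits far below the other libraries, which run from 23.4 to 47.6%.

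The alpha ring genes were the part of the core with the most reads with MEG-3. The gene pas-6, on chromosome V from 5583161 to 5584343 (WBcel235), had 138 and 127 reads with MEG-3, 0 and 14 with PGL-1, and 0 and 2 with GFP. In CPM both MEG-3 libraries (612 and 454) lay above the other 4, while PGL-1 (0 and 151) and GFP (0 and 142.5) overlapped. Counts of pas-5 were 101 and 29 with MEG-3, 0 and 10 with PGL-1, and 3 and 9 with GFP, where the 9 reads of the small GFP replicate 2 correspond to 641 CPM, more than the 448 CPM of MEG-3 replicate 1. For pas-7 there were 83 and 27 reads with MEG-3, 0 and 4 with PGL-1, and 1 and 0 with GFP. Of the alpha genes read more in MEG-3 replicate 2, pas-3 had 34 and 82 reads (PGL-1 1 and 11, GFP 15 and 0) and pas-4 had 9 and 80 (PGL-1 0 and 7, GFP 1 and 0). As CPM, pas-3 was highest in GFP replicate 1, at 565, beside 151 and 293 with MEG-3. The remaining pair, pas-1 and pas-2, had no read in MEG-3 replicate 1 and 43 and 31 reads in replicate 2. With GFP, pas-1 had 5 and 0 reads and pas-2 none. The 5 reads of pas-1 correspond to 188 CPM, beside 154 CPM in MEG-3 replicate 2. Per kilobase of gene span, pas-6 had the highest level of the alpha genes in both MEG-3 replicates, at 517 and 383 CPM, and the order of the others was not the same.

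Among the beta ring genes only pbs-5 reached 60 reads in a library, and the next highest count was 32, for pbs-1 in PGL-1 replicate 2. The gene pbs-5, whose homologs in yeast and mammals carry the chymotrypsin-like cutting site, lies on chromosome I from 14719167 to 14720477. It had 209 reads in MEG-3 replicate 1 but 8 in replicate 2, 2 and 6 with PGL-1, and 5 and 0 with GFP. This was 95.4% of all beta gene reads in that library. Of the other cutting subunits, pbs-1 (caspase-like in yeast and mammals) had 10 and 15 reads with MEG-3, 0 and 32 with PGL-1, and 5 and 0 with GFP. As CPM, pbs-1 was at 44.3 and 53.6 with MEG-3, beside 346 in PGL-1 replicate 2 and 188 in GFP replicate 1. The third, pbs-2 (trypsin-like in yeast and mammals), had 0 and 17, 0 and 5, and 2 and 0. The study probed pbs-7 by in situ hybridization as a transcript outside P granules, which accumulated in them after heat shock. It also lists pbs-7 among transcripts not recovered with MEG-3. The gene pbs-7 lies on chromosome I from 8695205 to 8696301 and had 0 and 10 reads with MEG-3, 0 and 13 with PGL-1, and 2 and 0 with GFP. It was at 35.7 CPM in MEG-3 replicate 2, beside 140 CPM in PGL-1 replicate 2 and 75.4 CPM in GFP replicate 1. No beta gene had a read in GFP replicate 2, and pbs-3, pbs-4 and pbs-6 had 0 reads in MEG-3 replicate 1 and 7 to 12 in replicate 2.

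Alpha and beta genes have similar spans, with medians of 1053 and 971 bases, so their levels can be set side by side per kilobase. In MEG-3 replicate 2 the 7 alpha genes ran from 89.9 to 383 CPM per kilobase of gene span and the 7 beta genes from 21.8 to 57.0, so that the ranges did not meet. In MEG-3 replicate 1 the ranges overlapped, at 0 to 517 for alpha and 0 to 707 for beta genes, with medians of 160 and 0. In PGL-1 replicate 2 the medians were 82.1 for alpha and 66.7 for beta genes, but the means were 87.9 and 120. In GFP replicate 1 the medians were 35.1 and 119, from medians of only 1 and 3 reads, and the means were 138 and 114. In both of these libraries the order of the rings thus depended on the measure. This comparison of rings was chosen after the values were seen and carries no test.

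Among the non-ATPase subunits of the cap, rpn-1 had the highest count of any member, 262 reads in MEG-3 replicate 2. It encodes a large scaffold of the base that docks ubiquitin-binding proteins, and lies on chromosome IV from 6906420 to 6909913, the longest span of the members but one. It had 51 and 262 reads with MEG-3, 25 and 54 with PGL-1, and 8 and 0 with GFP. Replicate 2 was high with MEG-3, and both PGL-1 libraries (1180 and 583 CPM) lay above both GFP libraries (302 and 0 CPM). Per kilobase of gene span rpn-1 was at 64.7 and 268 CPM with MEG-3, beside 527 and 64.5 CPM for rpn-7. The other large scaffold, rpn-2, had 55 and 21 reads with MEG-3, 0 and 8 with PGL-1, and 1 and 0 with GFP. The ubiquitin receptor rpn-10 had almost no reads with MEG-3, at 0 and 2, beside 0 and 11 with PGL-1 and 6 and 0 with GFP.

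Among the lid genes, rpn-7 had 237 and 36 reads with MEG-3, 0 and 26 with PGL-1, and 3 and 0 with GFP. It lies on chromosome IV from 9316639 to 9318632 and shares 485 bases of its span with nemt-1. How reads in the shared part were assigned is not given in the sources used here. The opposite order of replicates was seen for rpn-3, with 0 and 109 reads with MEG-3, 0 and 6 with PGL-1, and 4 and 0 with GFP. For rpn-11, the subunit that removes ubiquitin from the substrate, the counts were 7 and 31 with MEG-3, 0 and 13 with PGL-1, and 13 and 6 with GFP. In CPM both MEG-3 libraries (31.03 and 111) and both PGL-1 libraries (0 and 140) lay below both GFP libraries (490 and 427). The counts of rpn-8 were 47 and 50 reads with MEG-3, 1 and 1 with PGL-1, and 10 and 0 with GFP. As CPM this was 208 and 179 with MEG-3, 47.2 and 10.8 with PGL-1, and 377 and 0 with GFP. Of the remaining lid genes, rpn-5, rpn-9 and rpn-12 had 19 to 30 reads in MEG-3 replicate 2, and in replicate 1 rpn-9 had 45 and the others none.

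The lid subunit Rpn6 is encoded by a pair of genes. The first, rpn-6.1, known in C. elegans for raising proteasome activity in long-lived animals, had 6 and 76 reads with MEG-3, 0 and 17 with PGL-1, and 3 and 6 with GFP. As CPM, rpn-6.1 was highest in GFP replicate 2, at 427, beside 26.6 and 271 with MEG-3. Its paralog rpn-6.2 had 3 reads in PGL-1 replicate 2 and none in any other library. How reads that fit both genes were counted is not given in the sources used here, so the division between the paralogs is uncertain. A further cap gene, named rpn-13 in RefSeq, does not carry that symbol in the table and is not among the members. It was looked up after the members' values were seen and had 82 and 10 reads with MEG-3, 0 and 20 with PGL-1, and 1 and 4 with GFP.

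Of the 6 ATPase genes, rpt-1 was the only member with 60 reads or more in a PGL-1 library. On chromosome V from 11980534 to 11982397, it had 76 and 8 reads with PGL-1, 112 and 56 with MEG-3, and 9 and 0 with GFP. The 76 reads correspond to 3588 CPM, beside 86.4 CPM in PGL-1 replicate 2 and 339 CPM in GFP replicate 1. The gene rpt-5 had 33 and 89 reads with MEG-3, 1 and 20 with PGL-1, and 3 and 0 with GFP. For rpt-3 there were 47 and 27 reads with MEG-3, 0 and 15 with PGL-1, and 3 and 18 with GFP, the highest count of any member in GFP replicate 2. As CPM this was 208 and 96.4 with MEG-3 and 113 and 1282 with GFP, so that GFP replicate 2 was the highest library. Of the others, rpt-2, rpt-4 and rpt-6 had 0 or 1 read in MEG-3 replicate 1 and 22 to 41 in replicate 2. The span of rpt-4 shares 2188 bases with nfyc-1 and rpoa-49, and 10 other members besides rpn-7 share 4 to 140 bases with an annotated gene.

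**Figure D3:**
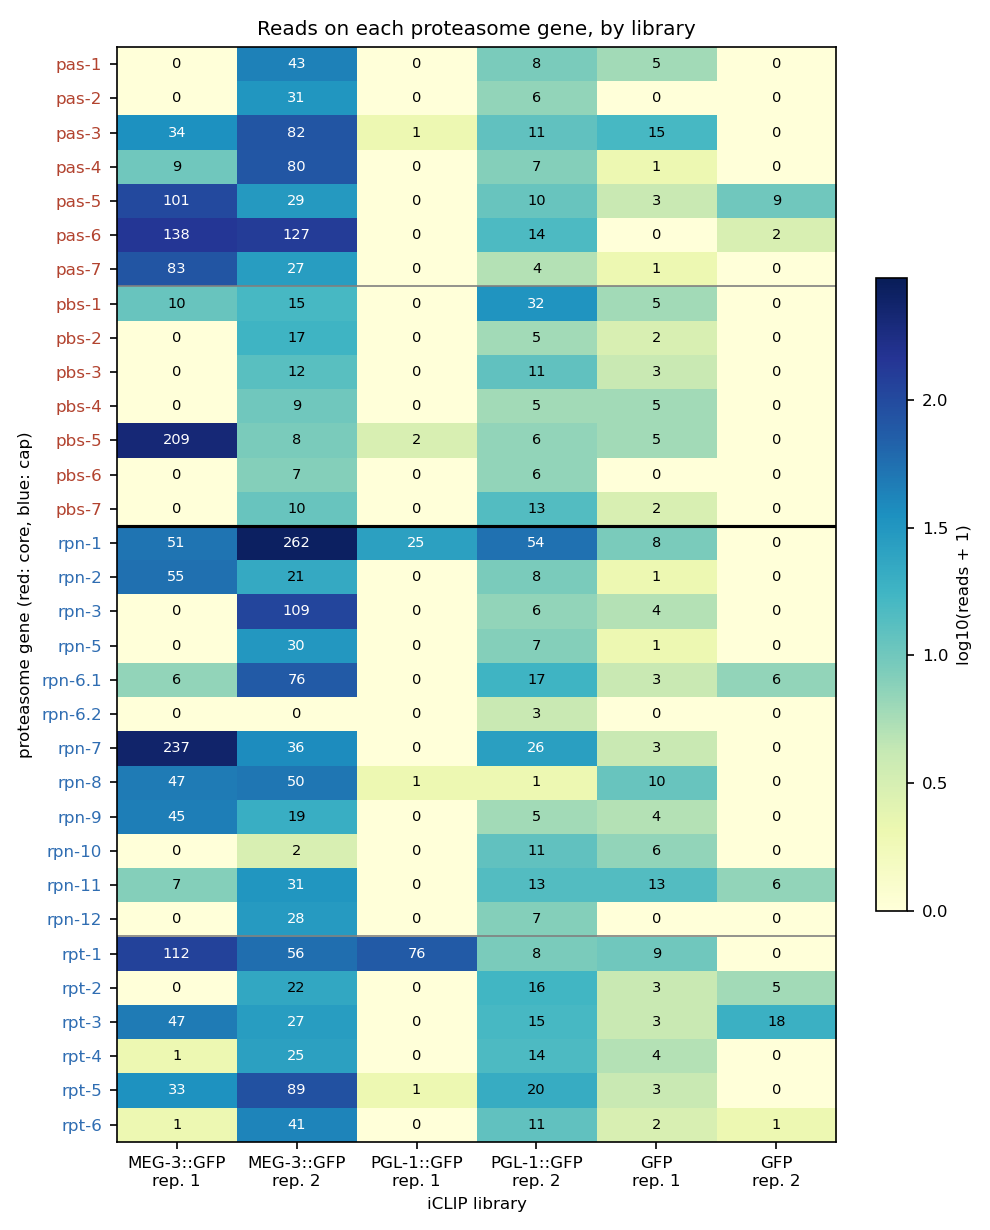
Reads on each of the 32 proteasome genes (rows, core above the heavy line and cap below it) in each of the 6 libraries (columns), with the colour on a scale of log10(reads + 1). MEG-3 replicate 1 has 13 members at 0, and the members with over 200 reads, pbs-5 and rpn-7 in that library and rpn-1 in replicate 2, are not the same in both replicates.

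The study took 60 reads as the background level set by GFP, and required it in both libraries. By this rule 1 of the 32 genes was at the threshold in both MEG-3 libraries, beside 7.09% of all genes with a read. This gene was pas-6. In replicate 1 the members at 60 reads were pas-5, pas-6, pas-7, pbs-5, rpn-7 and rpt-1. In replicate 2 they were pas-3, pas-4, pas-6, rpn-1, rpn-3, rpn-6.1 and rpt-5. Lists of 6 and 7 genes thus shared a single member, 16.7% of one and 14.3% of the other. With 60 reads in either library, 12 members passed (37.5%), beside 18.9% of all genes with a read. No member was at 60 reads in both PGL-1 libraries (background 0.194%) or both GFP libraries (0.0432%), and with GFP none reached 60 in either library (0.475%). With PGL-1, rpt-1 did so in replicate 1, 3.12% of members beside 3.29% of all genes. A count of 60 reads is not the same level in each library. It corresponds to 266 and 214 CPM with MEG-3, 2833 and 648 CPM with PGL-1, and 2262 and 4273.5 CPM with GFP. Thus rpt-3 did not reach 60 reads in GFP replicate 2, where it was at 1282 CPM. The numbers of members passing therefore cannot be compared between groups, and those with GFP do not show absence from the control.

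Between the MEG-3 replicates, the Spearman rank correlation of reads was 0.356 over the 32 members and 0.588 over other protein-coding genes with a read. Of those others, 1935 of 8267 had no read in either MEG-3 library, beside 1 of the 32 members. With such unlike shares of ties, the correlations cannot be set against each other. They describe genes of the same libraries, which are not independent of each other. With MEG-3, 19 members were read in both libraries and 12 in replicate 2 alone, 7 of them core and 5 cap genes. The 12 had 2 to 109 reads in replicate 2 (median 19.5), which overlaps the 8 to 262 reads there (median 36) of the 19. Of the members read in replicate 2, 61.3% were also read in replicate 1, beside 45.7% of other protein-coding genes.

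**Figure D4:**
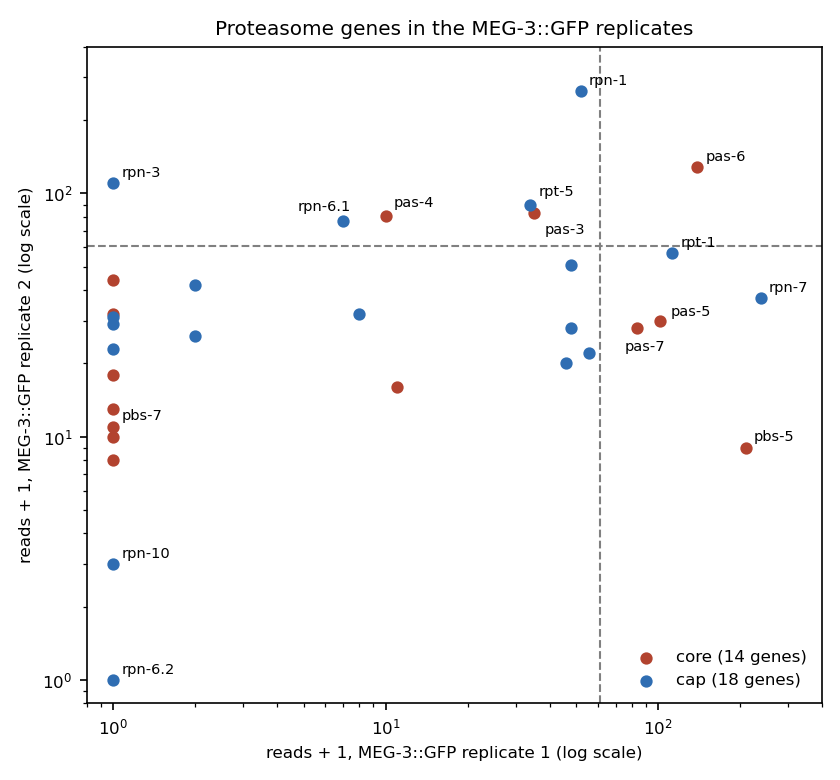
Reads + 1 of each proteasome gene in MEG-3 replicate 1 (x axis, log scale) and replicate 2 (y axis, log scale), with dashed lines at 60 reads. Only pas-6 lies beyond both lines, 11 other members lie beyond one of them, and 12 members stand at 0 in replicate 1 with reads in replicate 2.

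To set these differences against the replicate error, all 46646 genes entered 1 fit of the 6 libraries with edgeR's quasi-likelihood test and Benjamini-Hochberg adjustment, and 2033 passed the filter on low counts. Among them were 14 of the 32 members (5 core and 9 cap genes), and the other 18 were not tested. The filter asks for a set CPM in at least 2 libraries, which a few reads reach in the small GFP libraries. Thus rpn-3, with 109 reads in MEG-3 replicate 2, was left out, while rpt-2, with 5 reads in GFP replicate 2, was tested. No member was called between any pair of groups. Over all genes 0% were called in each of the 3 comparisons. Without adjustment, 63 genes had a p under 0.05 for MEG-3 over GFP (0.836% of tested genes higher and 2.26% lower), 16 for PGL-1 over GFP (0.492% and 0.295%) and 26 for MEG-3 over PGL-1 (0% and 1.28%). None of them was a member. DESeq2 called 0 members as well, with 44, 0 and 2 genes called in all. Libraries of a group differed widely, with a dispersion of 1.93 over all tested genes, which corresponds to a coefficient of variation of 1.39. The missing calls thus do not show that the groups are alike.

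For MEG-3 over GFP the log2 fold changes of the 14 members ran from -2.30 to 3.50, with 7 above and 7 below 0 and a median of 0.15, beside a median of 0.73 over all tested genes. The largest were those of rpn-7 (3.50, standard error 2.80) and pas-6 (3.36, standard error 2.90), both at adjusted p = 0.999 by edgeR. They were followed by pbs-5 (2.51), rpt-5 (2.26) and rpn-1 (2.24), and the lowest was rpn-11 (-2.30). Only the first 2 exceeded their standard errors, which come from the F value of the same test and add nothing to it. The filter admitted pas-6 only through MEG-3 (612 and 454 CPM) and rpn-11 only through GFP (490 and 427 CPM). Ranges, medians and signs over the 14 genes, here and in the comparisons below, thus depend in part on the group that admitted a gene. They are no evidence about the members as a set. For rpn-7 and pbs-5 a single library, MEG-3 replicate 1, held most of the reads, and neither gene was tested once it was left out. For rpn-1 the value was 0.77 without MEG-3 replicate 2. For pas-6 it was 3.28 without MEG-3 replicate 1, 3.62 without replicate 2 and 2.64 without GFP replicate 1. Without GFP replicate 2 no GFP read was left, and the fitted value of 9.11 is not a bound.

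In CPM, 6 of the 32 members lay higher in both MEG-3 libraries than in both GFP libraries (18.8%, beside 12.3% of all genes with a read). These were pas-4, pas-6, pas-7, rpn-2, rpn-7 and rpt-5. All but pas-6 had 0 reads in GFP replicate 2, which sets a limit of 214 CPM. The lower MEG-3 value of each of these 5 genes was under that limit, so their differences were not detectable at this depth. For pas-6 the nearest values, 454 CPM in MEG-3 replicate 2 and 142.5 CPM in GFP replicate 2, rested on 127 reads and 2 reads. In the opposite direction, rpn-11 and rpt-2 lay lower in both MEG-3 libraries (6.25%, background 4.73%). For rpt-2 the nearest values were 78.6 CPM in MEG-3 replicate 2 and 113 CPM in GFP replicate 1. The latter rested on 3 reads, so counting error leaves this difference uncertain.

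With PGL-1 the members moved no more clearly. Fold changes over GFP ran from -3.02 for rpn-8 to 2.95 for rpt-1 on the log2 scale (median -0.74 over the 14 members, -0.05 over all tested genes). The value for rpt-1 had a standard error of 2.49 (adjusted p = 0.999 by edgeR), and it rested on PGL-1 replicate 1, being -0.68 without that library. In CPM, rpn-1 was the only member higher in both PGL-1 libraries than in both GFP libraries (3.12%, background 2.61%), with a log2 fold change of 2.32 (standard error 2.51). Without 1 library it ran from 1.35 to 9.22, the latter without GFP replicate 1, where no GFP read was left. The members lower in both PGL-1 libraries were pas-5 and rpn-11 (6.25%, background 4.53%). The difference of pas-5 was not detectable, since a count of 0 in PGL-1 replicate 1 allows up to 141.6 CPM and GFP replicate 1 was at 113 CPM.

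Set directly against each other, MEG-3 and PGL-1 differed by -1.77 (pbs-1) to 3.34 (rpn-8) on the log2 scale, with a median of 0.90 over the 14 members and 0.88 over all tested genes. Higher in both MEG-3 than in both PGL-1 libraries were pas-3, pas-6, pas-7, rpn-8 and rpn-9, 5 of the 32 members (15.6%, background 10.2%). For pas-7 and rpn-9, at 0 in PGL-1 replicate 1, the lower MEG-3 values of 96.4 and 67.9 CPM were under the 141.6 CPM that a count of 0 allows there, so these differences were not detectable. For rpn-8 the CPM values were 208 and 179 with MEG-3 and 47.2 and 10.8 with PGL-1. For pas-3 they were 151 and 293 with MEG-3 and 47.2 and 119 with PGL-1. Both genes had 1 read in PGL-1 replicate 1, so counting error leaves these differences uncertain. No member was lower in both MEG-3 libraries (background 1.93%). The 3 comparisons share libraries, and their counts are not independent of each other.

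**Figure D5:**
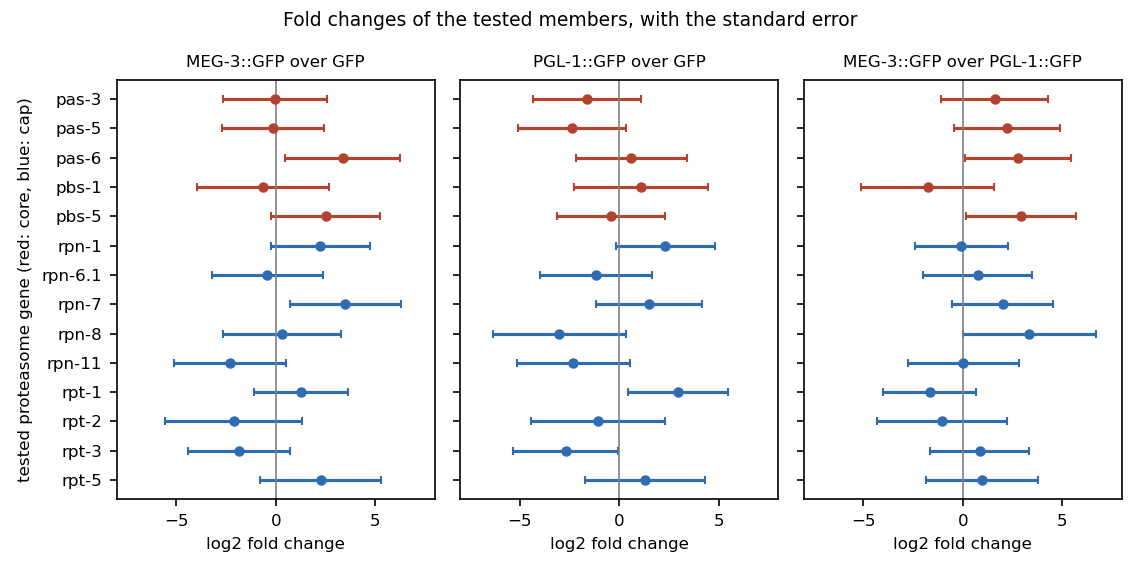
Log2 fold change (x axis) of the 14 tested members (rows) in the 3 comparisons (panels), with bars of 1 standard error derived from the edgeR test. Most bars cross 0, and for MEG-3 over GFP only those of rpn-7 (3.50) and pas-6 (3.36) do not.

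A second housekeeping complex was set beside the proteasome. The chaperonin, which folds actin and tubulin and is encoded by cct-1 to cct-8, had all 8 genes read in both MEG-3 libraries and 6 of them at 60 reads in both. Per gene this was a median of 206.5 and 143 reads, beside 6.5 and 28.5 for the proteasome. Per kilobase of gene span the medians were 266 and 185 CPM for chaperonin genes and 16.8 and 66.4 CPM for proteasome genes. In PGL-1 replicate 2 the order was the same, at 93.3 and 66.3 CPM per kilobase. In GFP replicate 1 the values were 34.8 CPM per kilobase for the chaperonin and 70.3 for the proteasome. Both sets had a median of 3 reads per gene there, so that this order came from the division by span. The 79 ribosomal protein genes, encoding the most abundant of such complexes, had a read in 14 and 35 cases with MEG-3, 3 and 76 with PGL-1, and 11 and 12 with GFP. These sets were compared as counts and medians, with no test of the difference.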

How the data were processed

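Per the study's methods, the authors clipped adaptors and random barcodes, mapped to ws235 with HISAT2 (2.1.0 in the submitters' processing notes), collapsed PCR duplicates and tallied each gene by HTSeq. The table they deposited holds raw counts of 6 libraries, neither normalized nor pooled. The annotation and the counting options, strand included, are not given in the sources used here. Columns named first and second were matched to the library of each protein without and with the word replicate in its title. Identifiers on more than 1 row (438) had the same counts on each row and were used once. Gene spans come from RefSeq (WBcel235), where all 32 members were matched.

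Shares, Wilson intervals and expected detection at the smallest library total (hypergeometric) were computed with Python 3.11.15, pandas 2.3.3, numpy 2.4.6 and SciPy 1.17.1. The number of reads per library, 14040 to 280007, sets their precision. All 6 libraries entered 1 fit by edgeR 4.0.16 (R 4.3.3) with TMM, its default filter, the quasi-likelihood test and Benjamini-Hochberg adjustment. DESeq2 1.42.0 was an alternative. The standard error given for a fold change is its size divided by the square root of F. Tested on simulated data, the fit recovered changed genes at a low dispersion but none at the dispersion of these libraries. Other alternatives were scaling, filters, detection minimums, thresholds and each library left out. All members could be named, and other genes came from lists. Members and lists were chosen with earlier results of these data known. Figures were drawn with matplotlib 3.10.9.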

Additional observations from a re-analysis of the deposited data

How the results depend on the processing

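The count of members called was 0 in each of the 3 comparisons with library size in place of TMM, DESeq2, no filter on low counts, only the 4 libraries of the 2 groups, and each library left out in turn (range 0 to 0). With the spread between these libraries, a count of 0 says nothing about stability. With PGL-1 over GFP, the log2 fold change of rpt-1 ran from -0.68 to 9.83 with 1 library left out, and it turned negative without PGL-1 replicate 1. The highest value is the one without GFP replicate 1, where no GFP read was left, and is not a bound. Members at the threshold in both MEG-3 libraries numbered 7 at 30 reads, 0 after scaling every library to the median total and 12 at 60 reads in either library, against 1 in the main setting. With a single MEG-3 library left, 6 or 7 passed. For PGL-1 the number was 1 in either library, and 0 to 1 with a single library left.

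At 3 reads or more, 0 core and 2 cap genes were detected in PGL-1 replicate 1, 7 core genes in GFP replicate 1 and 1 core gene in GFP replicate 2. At 10 reads or more, the core counts were 0 and 6 with PGL-1 and 1 and 0 with GFP, and the cap counts 2 and 10 with PGL-1 and 2 and 1 with GFP. At the smallest library total, 9.17 core genes would be expected in MEG-3 replicate 2. Without the gene with the most reads, the core held 0.166% and 0.132% of reads with MEG-3, 0.00472% and 0.114% with PGL-1, and 0.121% and 0.0142% with GFP. The cap then held 0.180% and 0.236% with MEG-3, 0.127% and 0.203% with PGL-1, and 0.128% in GFP replicate 2. With reads on protein-coding genes as the total, the cap held 0.297% in PGL-1 replicate 2. Divided by gene span, the core share of proteasome reads was 61.4% and 52.0% with MEG-3, 53.7% in PGL-1 replicate 2 and 52.9% in GFP replicate 1. Without the top gene of each particle, a setting added after the values were seen, it was 10.0% in GFP replicate 2. Leaving out a library for the threshold was also added then. Division by coding length was not run, for want of coding lengths here. Rows of repeated identifiers did not differ. GFP and PGL-1 replicate 1 limit what depth can show, at 113 to 214 CPM for a count of 0.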

Other observations

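Genes linked to the proteasome but outside the members, many of which feed or regulate it, include several with high counts in both MEG-3 libraries. Of 20 such genes, all present in the table, 5 were at 60 reads or more in both MEG-3 libraries, beside 1 of the 32 subunit genes and 7.09% of all genes with a read. Polyubiquitin (ubq-1) had 443 and 645 reads with MEG-3, 0 and 83 with PGL-1, and 0 and 24 with GFP, where the 24 reads correspond to 1709 CPM beside 1964 and 2304 CPM with MEG-3. The segregase gene cdc-48.1, whose product pulls ubiquitin-tagged proteins out of complexes, had 707 and 692 reads with MEG-3, 10 and 86 with PGL-1, and 29 and 3 with GFP. In CPM this was 3134 and 2471, 472 and 929, and 1093 and 214. Its paralog cdc-48.2 had 226 and 151, 1 and 43, and 2 and 2 reads. The shuttle gene rad-23, whose product carries ubiquitin-tagged proteins to the proteasome, had 394 and 354 CPM with MEG-3, 0 and 508 with PGL-1, and 302 and 0 with GFP, so that the groups overlapped. A second shuttle gene, ddi-1, had 417 and 236 CPM with MEG-3, 0 and 281 with PGL-1, and 37.7 and 0 with GFP. At the low end, aip-1 had 2 and 1 reads with MEG-3 and ecps-2 had none there. The transcription factor skn-1, which drives proteasome genes under stress, had 244 and 300 CPM with MEG-3, 0 and 302 with PGL-1, and 867 and 71.2 with GFP, where replicate 1 was the highest of the 6 libraries. Of the 20 genes, 10 were tested and 0 were called in any comparison (edgeR, adjusted over all tested genes).

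The activator gene psme-3 had its highest count, 67 reads, in PGL-1 replicate 1, with 2 in PGL-1 replicate 2, 1 and 49 with MEG-3 and 6 and 0 with GFP. Like rpt-1, it was high in that PGL-1 library alone of the pair.

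None of the 32 proteasome genes lies on the X chromosome, which holds 12.6% of the other protein-coding genes with a read. Chromosome I holds 7 of the 14 core genes and 3 of the 18 cap genes, and chromosome III holds 1 and 6.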
